A study of Sus scrofa with 24 samples.

Results

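The vein wall at the anastomosis of an arteriovenous graft was compared with an external jugular vein, 5 days after the graft was placed in pigs. An arteriovenous haemodialysis graft is a tube sewn between an artery and a vein so that blood can be drawn and returned for dialysis, and the vein where it is joined often narrows. The tested samples were 4 anastomosis samples of day 5, each labelled with the red dye Cy5. Their controls were 4 external jugular veins of day 5 labelled with the green dye Cy3, one on the array of each anastomosis sample. These 8 of the 24 samples of the series were chosen by their labels alone, with every non-control probe of the array, whether or not it carried a gene name. The 4 veins downstream of the anastomosis at day 5 (Cy5, on other arrays) and the anastomosis and control veins of day 14 (4 each) entered further comparisons. The labels call the replicates biological. They do not give the breed, sex or age of the pigs, whether the samples of a number came from 1 animal, or whether the control vein lay on the operated side. Every anastomosis sample was red and every control green, so dye and site cannot be told apart.

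A vein wall holds an endothelial lining, layers of contractile smooth muscle and an outer adventitia of fibroblasts. When a vein is sewn to a graft and carries arterial flow, it is known as background to become inflamed. Smooth muscle cells and fibroblasts are then known to leave their resting state, divide and lay down matrix, which builds the inner layer called neointima. RNA was taken from whole tissue, so fewer cells of a type and less RNA per cell cannot be told apart in any result here.

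Of 33334 features tested, 6445 (19.3%) differed between anastomosis and control at day 5 by limma's moderated test, with p-values adjusted over all features and a threshold of 0.05. A feature is a probe, or for a gene with several probes its brightest one. Of the tested features, 3018 (9.05%) were higher at the anastomosis and 3427 (10.3%) were lower. Among the 5930 features with a gene symbol, 1067 (18%) rose and 707 (11.9%) fell. Counts of the gene lists below are to be read against these shares, and all the lists were chosen with earlier results of these data known. Among the 27404 probes with no symbol, 1951 (7.12%) rose and 2720 (9.93%) fell. Past 2-fold, 950 features (2.85%) were higher and 1390 (4.17%) lower. Past 8-fold the counts were 36 and 60. The plot of difference against p shows both kinds of feature. Below, "rose" and "fell" are said only of what passed this threshold, and differences are anastomosis minus control on the log2 scale, with their standard error. The median difference was 0 over all features and 0.06 over those with a symbol.

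**Figure D1:**
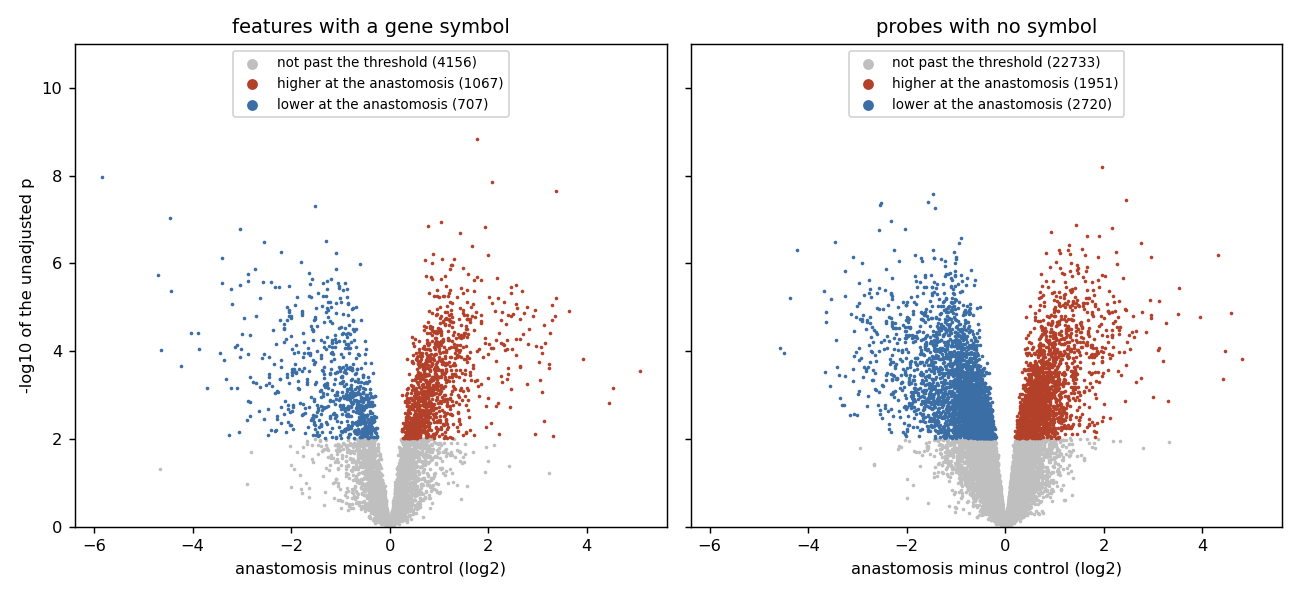
Each point is a feature, with its anastomosis minus control difference at day 5 (log2) on the x axis and the −log10 of its unadjusted p on the y axis, for 5930 features with a symbol (left) and 27404 probes with no symbol (right). Red points passed the threshold as higher and blue points as lower; red points are 1067 of those with a symbol and blue points 707, against 1951 and 2720 of those with none.

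The count and its balance moved with the scaling of the dyes. With each array centred on its median in place of an intensity-dependent loess curve, 10951 features passed and 80.7% of them were higher, against 46.8% higher with loess. The shift grew with brightness: with median centring the median difference was −0.05 over the 18985 dimmest features and 1.12 over the 677 brightest, whereas with loess it lay between −0.05 and 0.01 in each of the brightness classes. Of the 30 gene lists below with a median under 0, 19 had a median above 0 with median centring, whereas 0 of the 51 with a median above 0 turned. Counts or medians with that alternative are therefore given for many of the lists, but not for each list or gene.

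The arrays of replicates 1 and 2 were read with an earlier feature extraction protocol than those of replicates 3 and 4, and the share of probes well above background followed this split. It was 64.4%, 62.9%, 71.3% and 79% in the anastomosis samples and 59.2%, 58.4%, 70.1% and 76.9% in the control veins. With only replicates 3 and 4 the comparison gave 3956 calls, and with only replicates 1 and 2 it gave 2, both lower. The differences of the arrays nevertheless correlated with each other, at r of 0.72 to 0.81 across the 33334 features, which are not independent of each other. Of the 6445 called features, 6383 (99%) had the same sign in 4 of 4 arrays.

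Several of the largest differences belonged to probes that carry no gene symbol. Their 60-base sequences are printed first because they are the main identity these features have, and because overlaps tie some of them to named transcripts. The first pair shares a stretch, in capitals, between a probe described as unknown and a second probe of CXCL14, a chemokine of skin and connective tissue.
A_72_P161741: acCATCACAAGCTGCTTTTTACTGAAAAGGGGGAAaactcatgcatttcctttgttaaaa
A_72_P149371: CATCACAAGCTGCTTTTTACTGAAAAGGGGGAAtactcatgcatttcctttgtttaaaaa
The second pair shares another stretch, again in capitals, between a probe described as unknown and one whose description names the bovine proenkephalin A precursor, the source of the enkephalin opioid peptides.
A_72_P240152: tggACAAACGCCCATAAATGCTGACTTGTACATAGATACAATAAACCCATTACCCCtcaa
A_72_P014266: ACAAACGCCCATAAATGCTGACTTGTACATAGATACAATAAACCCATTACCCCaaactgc
The remaining unnamed leaders, for which no shared stretch is marked, are shown in lower case throughout.
A_72_P400268: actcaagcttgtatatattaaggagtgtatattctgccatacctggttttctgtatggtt
A_72_P064476: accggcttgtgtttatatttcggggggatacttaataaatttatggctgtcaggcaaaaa
A_72_P170171: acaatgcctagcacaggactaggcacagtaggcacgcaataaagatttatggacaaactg
A_72_P348313: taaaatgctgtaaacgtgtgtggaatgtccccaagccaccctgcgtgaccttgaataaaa
A_72_P051081: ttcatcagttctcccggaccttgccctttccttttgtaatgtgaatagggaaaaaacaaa

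The unknown probe A_72_P161741 had levels of 16.32, 14.92, 12.81 and 14.53 at the anastomosis, against 10.84, 9.28, 9.56 and 11.12 in the control veins (normalised log2 intensity). All anastomosis samples lay above all controls, and the difference was 4.45 ± 0.84 (adjusted p = 0.00261). Its partner A_72_P149371, with which it shares 33 bases, differed by 4.23 ± 0.83, and the brightest CXCL14 probe by 3.93 ± 0.77. In the other pair, A_72_P240152 was at 9.9, 9.9, 10.49 and 9.48 at the anastomosis, against 14.29, 14.41, 14.49 and 14.9 in the controls. Its partner by 53 shared bases, A_72_P014266, had 9.67, 9.63, 10.2 and 9.15 at the anastomosis and 13.83, 14.05, 14.25 and 14.51 in the controls. Both probes of the pair were low in each anastomosis sample, with differences of −4.58 ± 0.84 and −4.50 ± 0.85.

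Of the other probes, A_72_P400268 was high in each anastomosis sample, at 11.46, 11.41, 11.24 and 11.53. In the controls it was at 7.13, 7.17, 6.28 and 6.73, and only 2 of those 4 were well above background. A_72_P064476 rose by 4.42 ± 0.97 (adjusted p = 0.00631). A_72_P170171 fell by 4.38 ± 0.63 and A_72_P051081 by 3.69 ± 0.52. A_72_P348313, whose description matches in part the human prostaglandin synthase of resting tissue (prostaglandin-endoperoxide synthase 1), fell by 4.23 ± 0.49. Among the largest rises were also A_72_P283139 (4.8 ± 0.94) and A_72_P314703 (4.31 ± 0.51), which carry descriptions of microbial proteins and whose sequences are not shown. More widely, 135 tested probes without a symbol shared at least 30 bases with a probe of 1 tested gene. Of these 41 were called, 40 in the direction of that gene.

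Among named genes the largest rises included those of IBSP and SPP1, acidic proteins of bone matrix, and of local defence, chemokine and mitosis genes. The bone and cartilage matrix list as a whole had 5 of 17 higher and 3 lower, with a median of 0.12. IBSP, bone sialoprotein, an acidic protein of mineralising matrix, had 12.74, 11.99, 10.95 and 11.84 at the anastomosis. In the control veins it had 7.26, 7.08, 6.08 and 6.75, of which 2 were well above background. The fitted difference was 5.08 ± 1.07 (adjusted p = 0.00483), and its size is uncertain where the controls lie at background. Groups that do not overlap, as here, were seen for 6.73% of all features in this direction and 8.02% in the other.

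SPP1, osteopontin, a secreted ligand of integrins made by macrophages and activated smooth muscle, had 15.44, 14.55, 13.71 and 13.31 at the anastomosis and 11.18, 9.58, 8.58 and 9.57 in the controls. The groups did not overlap and the difference was 4.53 ± 1.06 (adjusted p = 0.00858). SAA3, an acute-phase serum amyloid made locally in inflamed tissue, had 16.1, 14.06, 12.73 and 12.11 against 11.72, 9.17, 7.99 and 8.34 in the controls. In both groups replicate 1 was the highest, and the paired difference was 4.45 ± 1.14 (adjusted p = 0.0141). CXCL14 had 15.51, 14.87, 12.95 and 14.99 at the anastomosis and 11.08, 10.07, 9.72 and 11.75 in the controls (adjusted p = 0.00322). Each of the 4 arrays showed it higher at the anastomosis.

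TMEM158, a membrane protein first found as a gene induced by Ras, stood out for its even difference. Its levels were 13.7, 13.23, 12.09 and 11.54 at the anastomosis and 10.24, 9.84, 8.38 and 8.56 in the controls. Levels varied between arrays at both sites together, and the TMEM158 difference was 3.38 ± 0.31 (adjusted p = 0.000145). The remaining large rises included SLC11A1 (3.16 ± 0.57), the metal pump of the phagosome, which had 11.7, 11.14, 12.87 and 12.17 against 9.13, 7.88, 9.34 and 8.89. LYZ, lysozyme, rose by 3.32 ± 1.09 (adjusted p = 0.0455), CCBE1, which helps to activate the lymphatic growth factor VEGFC, by 3.24 ± 0.66, and CCL20, a chemokine that attracts CCR6-bearing lymphocytes and dendritic cells, by 3.23 ± 0.67. CCL20 ranged widely at the anastomosis (11.28, 9.9, 12.31 and 8.73) and little in the controls (7.84, 7.47, 6.73 and 7.25). THBS4, a thrombospondin of tendon and injured muscle, rose by 3.14 ± 0.91 and TNN, tenascin N, by 3.09 ± 0.74. AWN, named for a pig seminal plasma protein, rose by 3.09 ± 0.59.

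**Figure D2:**
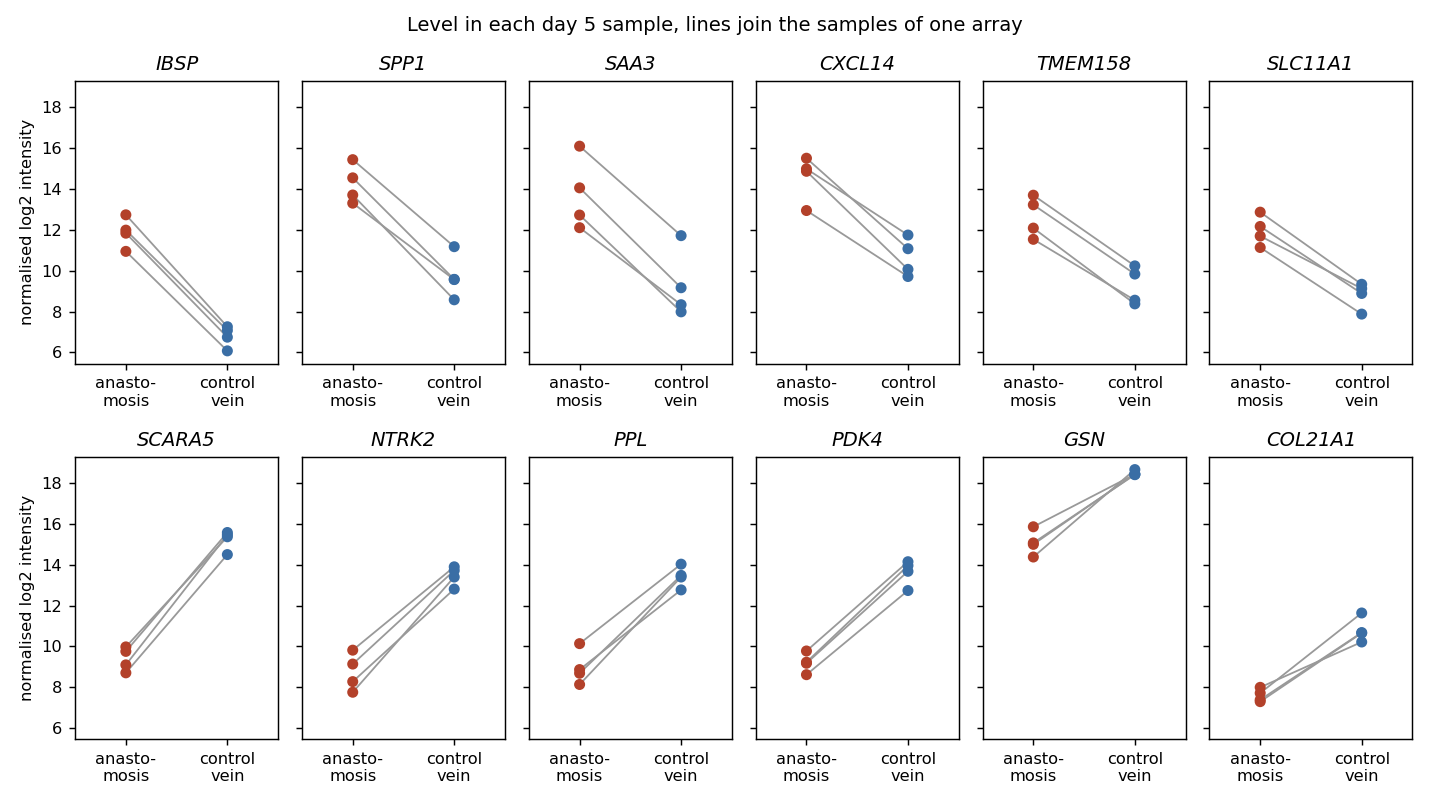
Normalised log2 intensity (y axis) of 6 genes that rose (top) and 6 that fell (bottom) in the 4 anastomosis samples (red) and the 4 control veins (blue) of day 5, with lines joining the samples of 1 array. In each panel the groups do not overlap; SCARA5 lies between 8.71 and 9.98 at the anastomosis and between 14.5 and 15.58 in the controls.

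The largest fall among all features tested was that of SCARA5, a scavenger receptor that takes up ferritin and is a marker of resting adventitial fibroblasts. It had 9.1, 8.71, 9.76 and 9.98 at the anastomosis and 15.47, 14.5, 15.58 and 15.37 in the controls, a difference of −5.84 ± 0.50 or 57.4-fold (adjusted p = 0.000117). NTRK2, the receptor of the neurotrophin BDNF, had 7.76, 8.28, 9.14 and 9.82 at the anastomosis and 13.4, 12.81, 13.72 and 13.9 in the controls. No anastomosis sample came within 2 log2 units of a control for either gene.

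MYOC, myocilin, a secreted protein best known from the eye's outflow tissue, fell by 4.64 ± 0.86. PPL, periplakin, which links intermediate filaments to junctions and membrane, had 8.14, 8.69, 8.87 and 10.14 at the anastomosis and 13.4, 13.48, 12.77 and 14.03 in the controls. The probes of these leading genes are given here so that the measured transcript end can be identified.
IBSP: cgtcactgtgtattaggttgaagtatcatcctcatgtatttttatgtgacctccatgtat
TMEM158: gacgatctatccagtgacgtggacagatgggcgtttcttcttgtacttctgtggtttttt
NTRK2: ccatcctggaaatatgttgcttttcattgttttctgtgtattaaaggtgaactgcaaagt
PPL: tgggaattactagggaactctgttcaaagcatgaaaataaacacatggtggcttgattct

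PDK4, the kinase that shuts pyruvate dehydrogenase and spares glucose in fasting, had 9.78, 9.18, 8.62 and 9.23 at the anastomosis and 14.15, 13.68, 12.74 and 13.96 in the controls. It was low in each anastomosis sample (−4.43 ± 0.62, adjusted p = 0.000683). KCNAB1, a subunit of voltage-gated potassium channels, fell by 4.23 ± 0.86. FAM107A, an actin-binding protein, fell by 4.04 ± 0.69 and CAP2, an actin-recycling protein of muscle, by 3.88 ± 0.72. GSN, gelsolin, which severs actin filaments, was among the brightest probes of the control veins at 18.66, 18.44, 18.43 and 18.41, and had 14.38, 15, 15.86 and 15.07 at the anastomosis.

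Other falls past 8-fold were those of SPARCL1, a matricellular protein that opposes adhesion (−3.89 ± 0.67), ID4, an inhibitor of helix-loop-helix factors (−3.70 ± 0.86), and CPE, a carboxypeptidase that trims peptide hormones (−3.45 ± 0.65). EFHD1, a mitochondrial calcium-binding protein, fell by 3.41 ± 0.46. CCL26, an eosinophil-attracting chemokine, had 7.56, 6.99, 6.14 and 6.72 at the anastomosis and 11.45, 8.82, 9.94 and 10.52 in the controls, a fall of 3.33 ± 0.73. NOV, a matricellular relative of connective tissue growth factor, fell by 3.26 ± 1.06 (adjusted p = 0.0433) and ANGPTL1, an angiopoietin-like secreted protein, by 3.23 ± 0.45. COL21A1, a short collagen of vessel walls, had 7.39, 7.72, 8 and 7.3 at the anastomosis and 10.68, 11.64, 10.22 and 10.66 in the controls, the groups being far apart.

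Genes of cell division rose, most of all those of mitosis and less evenly those of the earlier phases. Of 18 tested mitotic kinases and checkpoint genes, 17 rose and 0 fell, with a median difference of 2.38, against 18% higher, 11.9% lower and a median of 0.06 over all features with a symbol. In the 4 arrays the median was 2.69, 2.26, 2.24 and 2.18. CCNB1, a cyclin needed to enter mitosis, had 12.37, 12.14, 12.14 and 12.14 at the anastomosis and 8.54, 8.64, 8.45 and 8.65 in the controls. Its partner CDK1 had 12.69, 12.43, 11.75 and 11.97 at the anastomosis and 9.04, 9.04, 8.87 and 8.69 in the controls. Both were tightly grouped in both tissues, and the differences were 3.63 ± 0.56 (adjusted p = 0.00099) and 3.30 ± 0.49 (adjusted p = 0.000887). UBE2C and CDC20, which mark mitotic cyclins for destruction, rose by 3.13 ± 0.51 and 2.97 ± 0.54, and BUB1 of the spindle checkpoint by 2.81 ± 0.51. The one member that did not pass was WEE1, the kinase that holds CDK1 inactive (0.10 ± 0.13, adjusted p = 0.7).

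The machinery that moves chromosomes followed. Of 17 spindle, kinesin and cytokinesis genes, 14 rose (median 1.53), among them DLGAP5 (3.38 ± 0.49), SPAG5 (2.72 ± 0.42), the motor KIF4A (2.65 ± 0.42) and the midbody motor KIF23 (2.47 ± 0.39). Of 17 kinetochore and centromere genes, 13 rose (median 0.95). BIRC5, survivin, rose by 3.25 ± 0.56, SKA1 by 2.79 ± 0.42 and CENPA, the histone that marks the centromere, by 1.74 ± 0.27. Of 12 genes of chromosome structure, 8 rose. TOP2A, which untangles sister chromosomes, had 13.4, 13.25, 12.87 and 13.02 at the anastomosis and 10.23, 10.12, 10.25 and 10.14 in the controls. No member of these 3 lists fell.

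DNA replication genes rose too. Of 19 tested, 13 rose and 0 fell (median 1.14), led by RRM2, the small subunit of ribonucleotide reductase (3.29 ± 0.53), ORC1 of the origin complex (2.31 ± 0.42) and CHAF1B, which loads histones behind the fork (1.86 ± 0.30). The helicase subunits MCM3 and MCM4 rose by 1.61 ± 0.31 and 1.66 ± 0.37. PCNA, the sliding clamp, had a difference of 0.71 ± 0.26 and did not pass (adjusted p = 0.0734). Of 17 DNA repair genes, 12 rose (median 0.57), for example CLSPN (1.40 ± 0.30), RAD51AP1 (1.22 ± 0.20) and BRCA1 (1.13 ± 0.22). Among 12 drivers of the earlier phases, 6 rose and 1 fell (median 0.38). MYBL2, a transcription factor of proliferating cells, rose by 3.36 ± 0.53 and the repressor E2F8 by 1.69 ± 0.25, while CDK4 rose by 0.59 ± 0.16 and CDK6 had −0.50 ± 0.26 (adjusted p = 0.217).

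Genes that restrain the cycle gave falls that depended on the scaling. Of 11 tested, 4 fell and 0 rose, with a median of −0.52. Under median centring 0 were lower and 4 higher, and the median was 0.32. BTG2, an antiproliferative gene, fell by 1.90 ± 0.40, CDKN1B, the inhibitor p27, by 1.35 ± 0.32 and CCNG2, a cyclin of resting cells, by 1.23 ± 0.23.

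Genes of protein production rose in part, by smaller amounts than mitotic genes. Of 15 nucleolar and ribosome assembly genes, 9 rose and 0 fell (median 0.71), and with median centring 15 were higher (median 1.44). GAR1, which guides pseudouridylation of ribosomal RNA, rose by 1.65 ± 0.25 and GNL3, nucleostemin, by 1.43 ± 0.30. NPM1, nucleophosmin, had 15.86, 16.03, 15.58 and 15.57 at the anastomosis and 14.88, 15.15, 15.04 and 14.72 in the controls, with no overlap. Of 45 cytosolic ribosomal proteins, 23 rose and 1 fell, with a median of 0.35. This depended on the scaling: with median centring 42 were higher and 0 lower, and the median was 1.59. RPSA rose by 1.15 ± 0.16, RPS18 by 0.88 ± 0.10 and RPL10A by 0.77 ± 0.08. RPS15 had 14.34, 14.09, 14.07 and 14.01 at the anastomosis and 15.53, 15.32, 15.05 and 15.01 in the controls, a fall of 1.1 ± 0.14 that became 0.01 with median centring. Ribosomal protein genes have many processed copies in mammalian genomes, so which locus a probe reads is uncertain.

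Of 21 translation factors, 9 rose and 1 fell (median 0.40), against 19 higher and 0 lower with median centring (median 1.38). EEF1E1, part of the synthetase complex, rose by 1.48 ± 0.26, EIF1AX by 1.04 ± 0.24 and EIF4E, the cap-binding factor, by 0.94 ± 0.25, whereas EIF4A2, a helicase form of resting cells, fell by 1.40 ± 0.27. Of 25 proteasome genes, 11 rose and 0 fell (median 0.43), among them PSMD14 (1.26 ± 0.21), PSME3 (1.23 ± 0.20) and PSMA5 (1.21 ± 0.24). Median centring gave 24 higher proteasome genes (median 1.33). Of 18 transfer RNA synthetase and amino acid genes, 4 rose and 2 fell, near the 18% and 11.9% of all features with a symbol. Median centring gave 11 higher and 0 lower. GARS, EPRS and YARS rose by 0.94 ± 0.20, 0.94 ± 0.17 and 0.89 ± 0.19, and PSAT1, of serine synthesis, fell by 2.06 ± 0.53. In nucleotide synthesis 4 of 8 rose, led by MTHFD1L (1.56 ± 0.23) and PAICS (1.15 ± 0.26), and SHMT2 fell by 1.83 ± 0.47.

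The entry and folding path of secreted proteins rose as well, with 13 of 28 genes of the endoplasmic reticulum higher and 1 lower (median 0.54). With median centring 27 were higher and 0 lower (median 1.3). SSR1, a subunit of the translocon-associated complex, had 14.35, 13.73, 13.31 and 13.95 at the anastomosis and 11.87, 11.57, 11.75 and 11.82 in the controls (2.08 ± 0.31). CRELD2, a folding factor, rose by 1.72 ± 0.29, CALR, calreticulin, by 1.19 ± 0.21 and HSPA5, the chief chaperone of this compartment, by 1.13 ± 0.25. CANX, calnexin, did not pass (0.09 ± 0.16, adjusted p = 0.772).

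**Figure D3:**
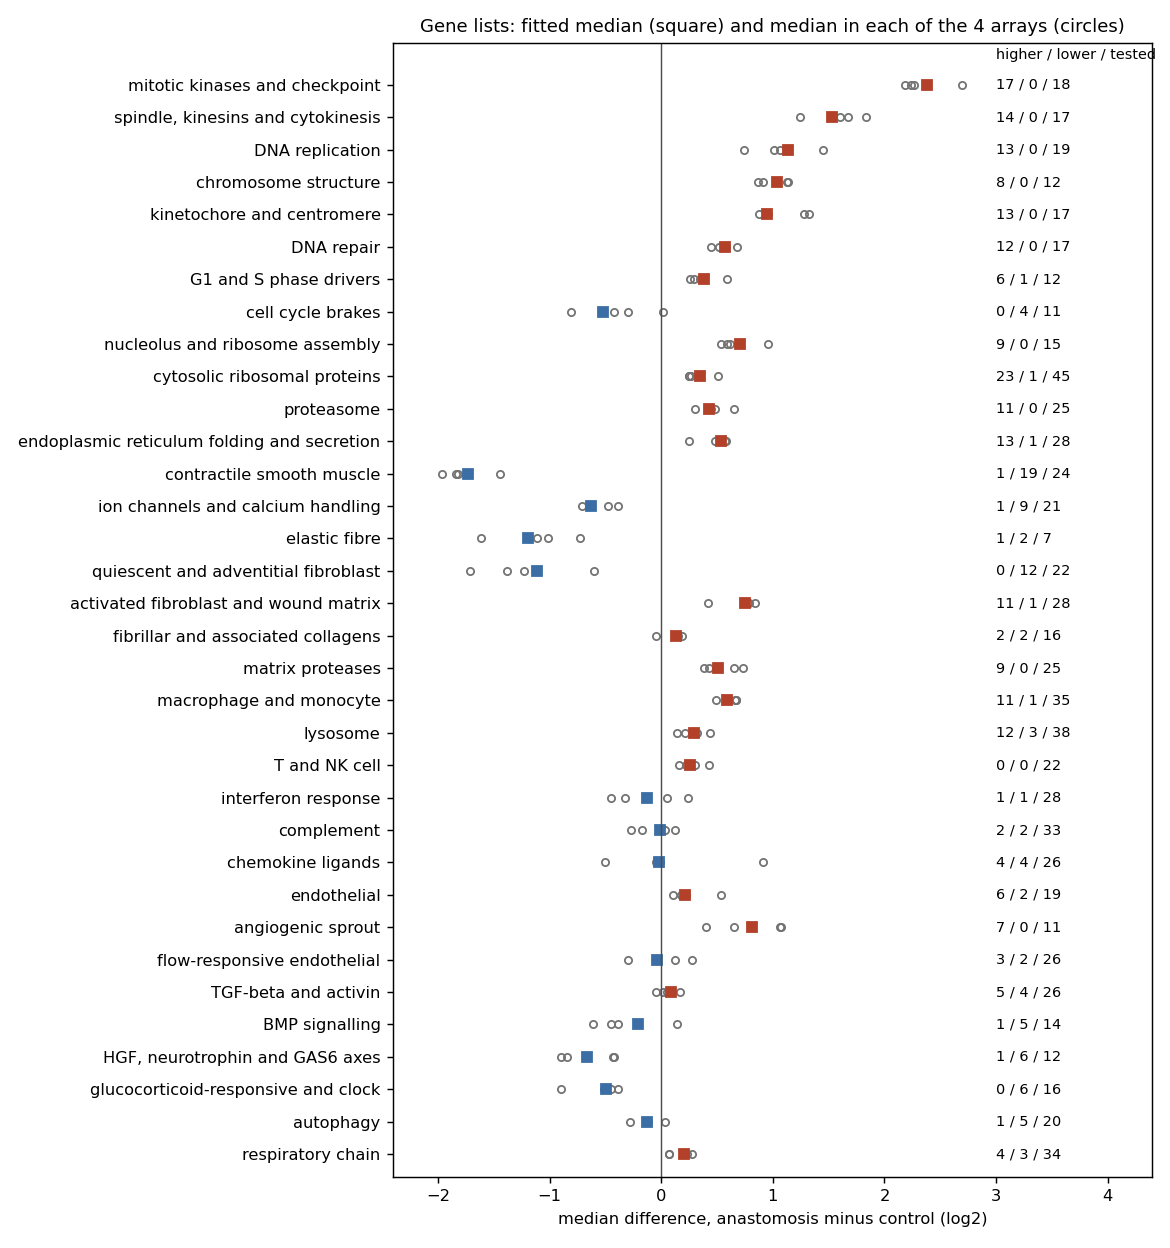
Median anastomosis minus control difference (x axis, log2) of 34 gene lists at day 5, as fitted (square, red above 0 and blue below) and in each of the 4 arrays (open circles). The numbers at the right are members higher, lower and tested; mitotic genes lie furthest to the right at 2.38 and contractile smooth muscle genes furthest to the left at −1.73.

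Contractile smooth muscle genes fell together. Of 24 tested, 19 fell and 1 rose, with a median of −1.73 and medians of −1.96, −1.84, −1.44 and −1.82 in the 4 arrays. With median centring 6 fell and the median was −0.97. MYH11, the smooth muscle myosin heavy chain, had 12.32, 13.73, 15.03 and 13.42 at the anastomosis and 15.89, 16.85, 17.55 and 17.15 in the controls. CNN1, calponin, had 14.1, 15.11, 15.45 and 13.64 at the anastomosis and 17.87, 17.73, 17.32 and 16.71 in the controls. ACTA2, smooth muscle actin, had 15.95, 16.17, 16.92 and 16.2 at the anastomosis and 18.51, 18.59, 18.38 and 18.56 in the controls. Each of these 3 was lower in all anastomosis samples than in any control, by 3.23 ± 0.75, 2.83 ± 0.72 and 2.20 ± 0.65 (adjusted p = 0.0084, 0.0134 and 0.0281).

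FHL1, a LIM protein of muscle, fell by 2.63 ± 0.38, PDLIM3 by 2.77 ± 0.62 and PPP1R14A, which keeps myosin phosphorylated, by 1.93 ± 0.41. MYOCD, myocardin, the coactivator that switches these genes on, fell by 1.59 ± 0.46. TAGLN, SM22-alpha, had −1.35 ± 0.51 and SMTN, smoothelin, −0.78 ± 0.37, and neither passed (adjusted p = 0.0789 and 0.164). The log2 of the summed level of the 6 smooth muscle markers was 16.62 to 17.92 at the anastomosis and 19.42 to 19.59 in the controls.

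Calcium handling and channel genes fell in part with them: 9 of 21 fell and 1 rose (median −0.63). Median centring gave 7 lower and 5 higher (median −0.32). PLN, phospholamban, the brake on the calcium pump, had 9.89, 10.13, 11.19 and 10.43 at the anastomosis and 13.63, 13.47, 13.88 and 14.14 in the controls. RYR2, a calcium release channel, fell by 3.15 ± 0.58, PLCB4, a phospholipase, by 2.23 ± 0.49 and KCNA5, a voltage-gated potassium channel, by 2.14 ± 0.59. ABCC9, the regulatory subunit of ATP-gated potassium channels, rose by 0.69 ± 0.22.

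Receptors of vascular tone showed no common direction. Of 32, 6 were higher and 1 lower, against 18% and 11.9% of all features with a symbol. Their median of −0.10 was 0.39 with median centring. RGS5 and RGS2, which switch off signals of contractile receptors, rose: RGS5 had 13.03, 13.52, 13.27 and 13.08 at the anastomosis and 10.74, 11.26, 10.97 and 10.79 in the controls. RGS2 rose by 1.71 ± 0.23, the endothelin receptor EDNRB by 1.31 ± 0.26 and the adenosine receptor ADORA2B by 1.07 ± 0.26. AGTR1, the angiotensin receptor, had 7.29, 7.41, 7.78 and 9.05 at the anastomosis and 10.74, 9.55, 10.25 and 10.91 in the controls (−2.48 ± 0.81, adjusted p = 0.0437). Of the 10 pericyte genes, RGS5 (2.28 ± 0.51), NDUFA4L2 (1.51 ± 0.33) and ABCC9 rose and 0 fell.

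Resting fibroblast genes were among the steepest falls, in a list that was chosen with earlier results of these data known. Of 22 genes of quiescent and adventitial fibroblasts, 12 fell and 0 rose (median −1.11, and −0.87 with median centring). Besides SCARA5, NTRK2, MYOC, GSN and ANGPTL1 they included CFD, complement factor D, which had 13.39, 12.22, 12.16 and 12.81 at the anastomosis and 15.72, 14.78, 15.76 and 15.86 in the controls. MFAP5, a microfibril protein, fell by 2.30 ± 0.42 and PCOLCE2, an enhancer of collagen processing, by 1.87 ± 0.42. The pan-fibroblast genes DCN and DPT had −1.06 ± 0.44 and −0.36 ± 0.38 and did not pass (adjusted p = 0.11 and 0.596).

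Activated fibroblast and wound matrix genes rose in part: 11 of 28 rose and 1, SPARCL1, fell (median 0.75). With median centring 21 were higher and 1 lower (median 1.64). The rises include the leaders TMEM158, CXCL14, THBS4 and TNN named above, and the list was chosen with earlier results of these data known. TIMP1, an inhibitor of matrix metalloproteinases, had 15.81, 14.76, 14.51 and 14.88 at the anastomosis and 12.51, 11.6, 12.37 and 12.89 in the controls, with no overlap (2.65 ± 0.54, adjusted p = 0.00419). FN1, fibronectin, VCAN, versican, and COL12A1 had 1.14 ± 0.45, 0.44 ± 0.44 and 0.78 ± 0.39, and did not pass (adjusted p = 0.095, 0.571 and 0.198).

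The direction of the collagens depended on the scaling. Of 16 fibrillar and associated collagens, 2 rose, 2 fell and the median was 0.13, and with median centring 8 were higher, 1 lower and the median 1.17. COL27A1 and COL5A3 rose by 1.34 ± 0.34 and 1.01 ± 0.27, and COL21A1 and COL14A1 fell by 3.20 ± 0.47 and 1.98 ± 0.37. COL1A1, a chain of the main fibrillar collagen, had −0.50 ± 0.36 (adjusted p = 0.404). Among 10 processing and crosslinking genes, 2 rose, PLOD2, a lysyl hydroxylase (1.63 ± 0.26), and P4HA1, a prolyl hydroxylase (0.74 ± 0.17), and 1 fell. Median centring turned their median from −0.16 to 0.85, with 5 higher and 0 lower.

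Basement membrane genes split by chain. LAMA2 and LAMA3 fell by 2.14 ± 0.36 and 2.15 ± 0.36, COL4A5 fell by 1.75 ± 0.45 and LAMB1 rose by 0.96 ± 0.18, 4 of 10 tested. COL4A1, the main chain of vessel walls, had 0.17 ± 0.27 (adjusted p = 0.752). In the elastic fibre list LTBP4, which ties latent TGF-beta to microfibrils, had 12.75, 13.66, 13.38 and 13.03 at the anastomosis and 15.23, 16.31, 15.19 and 15.38 in the controls. EMILIN1, by contrast, rose by 1.16 ± 0.29. Of 18 proteoglycan genes, 5 rose, with CHSY3 (1.67 ± 0.19), CHST11 (1.44 ± 0.25) and CHSY1 (1.1 ± 0.30) of chondroitin sulphate synthesis among them, and GPC3, a glypican, fell by 2.71 ± 0.43.

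In the list of matrix proteases 9 of 25 were higher and 0 lower, with a median of 0.51 (16, 0 and 1.36 with median centring). The 9 were ADAM sheddases, PLAU and the cathepsins CTSB, CTSS and CTSD, which count again among the lysosomal genes below. PLAU, urokinase, had 15.24, 15.52, 15.33 and 15.37 at the anastomosis and 13.1, 12.21, 13.12 and 13.52 in the controls (2.38 ± 0.44, adjusted p = 0.00244). The sheddases ADAM8, ADAM28 and ADAM9 rose by 2.22 ± 0.72, 2.19 ± 0.32 and 1.14 ± 0.33. MMP9, gelatinase B, had 15.28, 12.6, 12.76 and 13.36 against 12.57, 10.46, 10.54 and 10.76, which did not pass in spite of its size (2.42 ± 1.08, adjusted p = 0.142). Its replicate 1 was highest at both sites. In the MMP family 0 of 8 passed in limma, with 2 at an unadjusted p under 0.05 and 3 called with median centring.

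Among inhibitors and clotting genes, TFPI, which blocks the start of coagulation, had 10.08, 10.79, 8.85 and 9.49 at the anastomosis and 8.05, 7.95, 7.2 and 7.74 in the controls. Its difference of 2.07 ± 0.18 had one of the smallest adjusted p-values, 0.000117. SERPINE2, an inhibitor of thrombin and urokinase, rose by 2.15 ± 0.38. F3, tissue factor, fell by 1.97 ± 0.61 and F2, prothrombin, by 1.79 ± 0.27. Over the whole coagulation list 5 of 26 rose and 4 fell, near the 18% and 11.9% of all features with a symbol, and with median centring 10 were higher and 1 lower.

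Macrophage genes rose in part, and no T or NK cell gene passed. Of 35 macrophage and monocyte genes, 11 rose and 1 fell (median 0.59, medians of 0.67, 0.49, 0.66 and 0.67 in the 4 arrays). Median centring gave 20 higher and 0 lower (median 1.43). MSR1, a scavenger receptor, had 12.49, 12.65, 12.02 and 11.84 at the anastomosis and 10.24, 10.53, 9.01 and 9.21 in the controls (2.50 ± 0.39, adjusted p = 0.00103). CD163, the haemoglobin scavenger receptor, had 14.86, 14.54, 14.7 and 15.11 against 12.99, 13.53, 13.88 and 13.42. Both separated the tissues fully. The costimulator CD86 rose by 1.63 ± 0.34 and the lipase PLA2G7 by 1.59 ± 0.43, whereas CD14 had 0.55 ± 0.40 (adjusted p = 0.404).

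ACP5, the tartrate-resistant acid phosphatase of osteoclasts and some macrophages, had 13.36, 14.04, 15.3 and 14.64 at the anastomosis and 11.2, 11.25, 11.15 and 11.56 in the controls (3.05 ± 0.67). It was the 1 of 12 osteoclast and cell fusion genes that passed. Lysosomal genes rose in part, 12 of 38, with 3 lower, against 31 higher and 0 lower with median centring. CTSC, CTSS, CTSD and CTSB, all cathepsins, rose by 2.64 ± 0.54, 1.26 ± 0.35, 1.26 ± 0.30 and 1.20 ± 0.21, and LIPA, the lysosomal lipase, by 1.14 ± 0.33.

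Of 22 T and NK cell genes, 0 rose and 0 fell in limma, with a median of 0.26 and 2 at an unadjusted p under 0.05; with median centring 2 rose. The T cell receptor chains CD3E and CD3D had 0.24 ± 0.27 and 0.52 ± 0.56, and NKG7 0.74 ± 0.25 (adjusted p = 0.0505). Of 5 B and plasma cell genes, PRDM1, which is also made by other cells, rose by 1.12 ± 0.37. Of 7 neutrophil genes 1 fell, PGLYRP1 (−0.68 ± 0.13), and ARG1 had 14.65, 11.68, 9.43 and 10.02 at the anastomosis and 9.82, 8.72, 7.13 and 7.19 in the controls, a wide spread that did not pass (3.23 ± 1.57, adjusted p = 0.181). Of 6 mast cell and eosinophil genes, 2 rose and 0 fell, with a median of 0.05. Median centring gave 3 higher and 0 lower (median 0.24). The 2 that rose were the mast cell markers KIT (1.12 ± 0.28) and HDC (1.03 ± 0.26), whose summed level overlapped between anastomosis and control.

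Chemokines went both ways, 4 of 26 up and 4 down, near the 18% and 11.9% of all features with a symbol. Median centring gave 7 higher and 4 lower. Beside CXCL14 and CCL20, AMCF-II, a neutrophil-attracting chemokine of pigs, had 12.33, 10.15, 10.4 and 9.33 at the anastomosis and 8.17, 8.34, 6.64 and 7.29 in the controls (2.94 ± 0.95, adjusted p = 0.0425). CXCL12, the ligand of CXCR4, rose by 1.36 ± 0.42, and its receptor CXCR4 by 1.21 ± 0.27. CCL26, CCL24 and CXCL9 fell by 3.33 ± 0.73, 1.94 ± 0.40 and 1.47 ± 0.40. Of 18 chemokine receptors 2 rose and 1 fell, with CX3CR1 of monocytes up by 1.59 ± 0.40 and the scavenging receptor ACKR4 down by 2.40 ± 0.75.

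Cytokine and interferon genes mostly did not pass. Of 27 interleukins and tumour necrosis factor ligands, 1 rose, LIF (0.67 ± 0.15), and 2 fell, IL17D by 1.65 ± 0.31 among them. IL6 had 16.21, 16.23, 16.13 and 14.21 at the anastomosis and 16.43, 13.99, 13.76 and 16.45 in the controls, with overlap and no call (0.53 ± 0.75, adjusted p = 0.712). Of 21 cytokine receptors 3 rose and 1 fell, no larger a share than the 18% and 11.9% of all features with a symbol. The rises were TNFRSF21 (1.48 ± 0.19), IL17RA (1.35 ± 0.29) and IL4R (1.04 ± 0.19). Of 28 interferon response genes 1 rose and 1 fell (median −0.13, and 0.26 with median centring), the fall being IRF1 (−2.06 ± 0.55). MX1 had 0.17 ± 0.28 (adjusted p = 0.759).

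Complement and acute-phase genes were split. Of 33 complement genes 2 rose and 2 fell, against 11 and 2 with median centring. The rises were CLU, clusterin (2.25 ± 0.49), and C6, a part of the membrane attack complex (0.79 ± 0.19). CFD and C4BPA fell, C4BPA being a regulator of complement that had 13.33, 14.53, 14.82 and 14 at the anastomosis and 16.57, 16.92, 16.46 and 16.37 in the controls. In the acute-phase list SAA3 and LYZ rose, while ITIH5, a hyaluronan-binding protein, fell by 3.03 ± 0.41 and TF, transferrin, by 1.84 ± 0.38. Antigen presentation genes gave 2 rises among 23, CTSS and TAP2 (0.34 ± 0.10). With median centring 16 of them were higher and 0 lower, and their median was 0.85 in place of 0.14.

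Endothelial genes rose in part. Of 19 tested, 6 rose and 2 fell (median 0.21), against 11 higher and 0 lower with median centring (median 0.76). KDR, the main VEGF receptor, had 11.04, 10.81, 10.99 and 11.31 at the anastomosis and 9.02, 8.56, 8.94 and 9.1 in the controls (2.13 ± 0.33, adjusted p = 0.000986). CDH5, the junction protein VE-cadherin, had 13.86, 14.36, 13.19 and 12.98 against 12.5, 12.64, 11.66 and 11.61. ICAM2 and the transcription factor SOX18 rose by 1.37 ± 0.26 and 1.20 ± 0.20, and AQP1, a water channel, fell by 2.22 ± 0.49. PECAM1 and VWF, which mark most endothelium, had 0.19 ± 0.26 and −0.45 ± 0.29 and did not pass (adjusted p = 0.707 and 0.339).

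Sprouting genes rose more evenly, 7 of 11 with 0 lower (median 0.81). ANGPT2, which loosens vessel walls, rose by 1.56 ± 0.24, VEGFC by 1.26 ± 0.20, UNC5B by 0.81 ± 0.19 and the co-receptor NRP1 by 0.61 ± 0.20. VEGFA had 0.91 ± 0.44 (adjusted p = 0.183). Flow-responsive genes gave 3 rises and 2 falls among 26, and 9 and 1 with median centring. TXNIP, which binds thioredoxin, had 10.85, 9.82, 10.54 and 10.96 at the anastomosis and 13.18, 13.14, 12.83 and 13.33 in the controls, a fall of 2.58 ± 0.35, and BMP4 fell by 0.77 ± 0.23. NOS3, the endothelial nitric oxide synthase, had −0.43 ± 0.48 (adjusted p = 0.623) and KLF4, induced by laminar flow, −1.42 ± 0.49 (adjusted p = 0.0554).

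**Figure D4:**
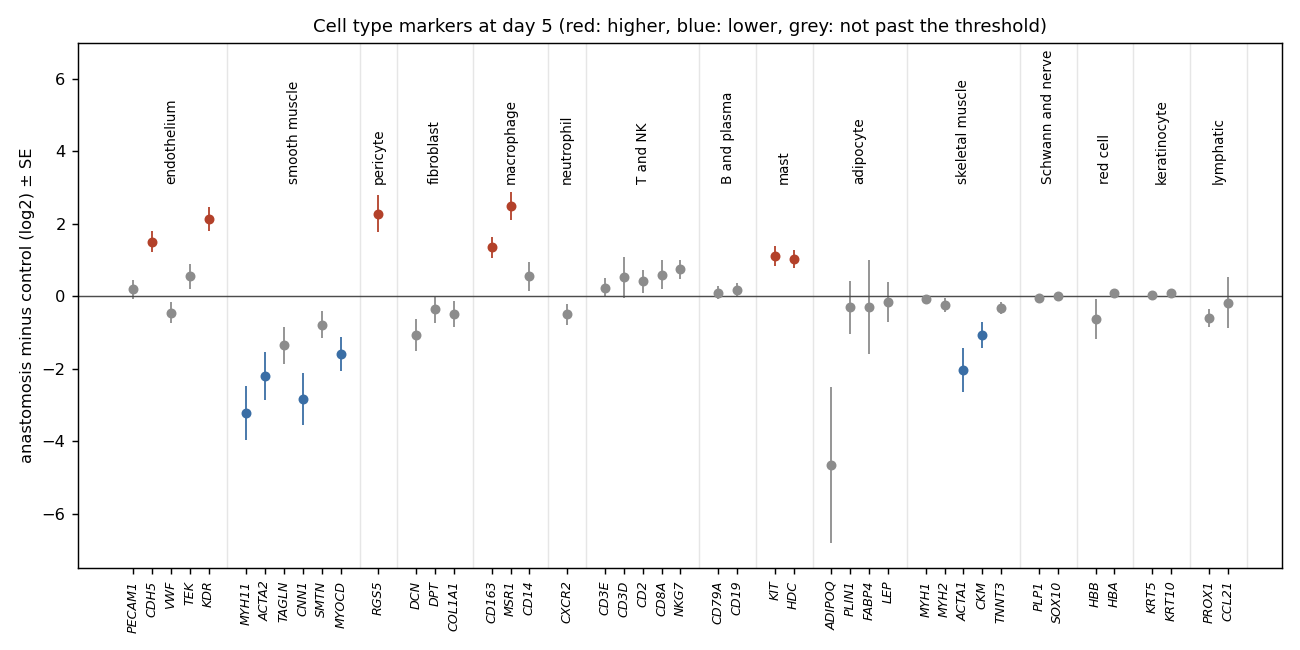
Anastomosis minus control difference at day 5 (y axis, log2, ± SE) of the tested markers of 15 cell types (x axis), with red for genes that rose, blue for genes that fell and grey for those that did not pass. Of 6 smooth muscle markers 4 are blue and of 3 macrophage markers 2 are red; the 5 T and NK markers are grey.

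Growth factor systems moved by member. In the list of HGF, neurotrophin and GAS6 axes 6 of 12 fell and 1 rose (median −0.66, and −0.12 with median centring). NTRK3 fell by 2.45 ± 0.48, its ligand NTF3 by 1.97 ± 0.51 and AXL, the receptor of GAS6, by 1.22 ± 0.26. BMP genes fell in part, 5 of 14 with 1 rise (median −0.21). Median centring gave 3 lower and 3 higher (median 0.10). CHRDL1, a secreted BMP antagonist, had 10.93, 10.93, 11.39 and 11.93 at the anastomosis and 14.4, 13.52, 14.77 and 14.64 in the controls. The BMP target ID2 fell by 1.90 ± 0.41 and BMP7 by 1.30 ± 0.34.

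The insulin-like growth factors moved in opposite directions. IGF2 had 11.32, 11.05, 14.11 and 14.05 at the anastomosis and 14.52, 14.43, 16.68 and 16.37 in the controls, lower in each pair (−2.87 ± 0.37). IGF1 rose by 1.63 ± 0.31. IGFBP4, a binding protein that holds these factors, had 12.52, 11.95, 13.06 and 14.26 at the anastomosis and 10.4, 10.03, 11.72 and 11.67 in the controls (2.00 ± 0.24). AREG, amphiregulin, a ligand of the EGF receptor, had 12.45, 11, 8.78 and 8.73 against 8.57, 7.65, 6.76 and 7.39 (2.65 ± 0.47), while EGFR fell by 0.99 ± 0.19. Replicates 1 and 2 held the higher AREG levels in both tissues. In the EGF family list 2 of 8 rose and 2 fell, against 3 higher and 0 lower with median centring.

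In the FGF family FGF7, keratinocyte growth factor, rose by 0.92 ± 0.30, FGFR2 by 0.73 ± 0.16, and FGFR1 fell by 1.34 ± 0.24. The other 8 of 11 did not pass, and median centring gave 4 higher and 0 lower. In the Wnt list DKK2, a Wnt antagonist, fell by 2.88 ± 0.55 and the co-receptors LRP5 and LRP6 by 1.52 ± 0.46 and 1.07 ± 0.26, and FZD10 rose by 1.17 ± 0.30. Of 21 tested Wnt genes 2 rose and 3 fell, against 5 higher and 1 lower with median centring. In TGF-beta signalling 5 of 26 rose and 4 fell, near the 18% and 11.9% of all features with a symbol, the largest fall being SKIL, a repressor of SMADs (−2.72 ± 0.61). In Notch signalling 4 of 14 rose, with NOTCH4 of endothelium at 1.30 ± 0.22, and 2 fell. Among YAP and TEAD targets 2 of 11 rose, TEAD4 (2.22 ± 0.38) and ANKRD1 (1.27 ± 0.43), and 3 fell. Their median of −0.13 was 0.15 with median centring, where 2 were higher and 0 lower.

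Early response genes gave 3 falls and 1 rise among 15, and 0 falls and 3 rises with median centring, where the median turned from −0.19 to 0.15. EGR1 had 15.55, 15.14, 15.64 and 14.43 at the anastomosis and 18.17, 17.28, 16.78 and 17.35 in the controls, and IER2 fell by 1.68 ± 0.37. Heat shock genes gave 5 falls and 4 rises among 24, and 1 fall and 10 rises with median centring (median −0.04 and 0.72), with HSPA6 and DNAJB1 down by 2.84 ± 0.79 and 2.28 ± 0.64 and HSPA4 up by 0.97 ± 0.24. Of 16 glucocorticoid-responsive and clock genes, 6 fell and 0 rose (median −0.49), and with median centring 2 were lower and 2 higher (median −0.01). Beside PDK4 the falls included FOXO3 (−1.52 ± 0.24), FOXO1 (−1.28 ± 0.18), KLF9 (−1.48 ± 0.38) and NR3C2, the mineralocorticoid receptor (−1.59 ± 0.26).

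Autophagy genes fell in part, 5 of 20 with 1 rise. GABARAPL1, which decorates autophagosomes, had 12.29, 12.29, 12.21 and 12.22 at the anastomosis and 14.37, 13.51, 13.52 and 13.7 in the controls. MAP1LC3B fell by 1.30 ± 0.19 and FBXO32, a ubiquitin ligase of wasting muscle, by 2.14 ± 0.35. The list's median of −0.13 became 0.52 with median centring, where 9 were higher and 2 lower. Apoptosis genes gave 5 rises and 0 falls among 19, such as FADD (0.86 ± 0.22) and CASP8 (0.84 ± 0.21).

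Of 23 hypoxia and glycolysis genes, 6 rose and 1 fell. LDHA, lactate dehydrogenase A, rose by 1.38 ± 0.44, SLC2A1, the glucose transporter GLUT1, by 1.28 ± 0.33 and HK1 by 0.94 ± 0.21. In the respiratory chain 4 of 34 rose and 3 fell, no larger a share than the 18% and 11.9% of all features with a symbol, and with median centring 30 were higher and 0 lower. COX7A1, a muscle form of a cytochrome oxidase subunit, fell by 1.61 ± 0.31. Fatty acid oxidation gave 3 each way among 28, and 14 higher and 1 lower with median centring, with PPARGC1A, a coactivator of mitochondrial genes, down by 1.61 ± 0.31. Antioxidant and iron genes rose more often, 9 of 33 with 1 fall (median 0.45). FTL, ferritin light chain, had 17.07, 17.01, 16.88 and 16.73 at the anastomosis and 15.87, 15.54, 14.57 and 15.52 in the controls, and GSTO1, PRDX1 and GPX1 rose by 1.33 ± 0.25, 1.26 ± 0.27 and 1.12 ± 0.24. HMOX1, haem oxygenase, had 1.19 ± 0.68 (adjusted p = 0.264).

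The cytoskeleton divided between forms. Of 36 genes of actin dynamics, 9 rose and 7 fell, against 19 and 6 with median centring. TMSB10, thymosin beta 10, which holds actin monomers, had 16.94, 17.62, 17.61 and 17.46 at the anastomosis and 15.2, 16.04, 15.86 and 15.42 in the controls. Its difference of 1.78 ± 0.13 had the smallest adjusted p of all features, 4.9e-05. ACTR3, of the branching complex, rose by 1.04 ± 0.24 and cytoplasmic ACTB by 0.87 ± 0.23. Among 32 cadherin and junction genes, 5 rose and 6 fell, against 18% and 11.9% of all features with a symbol. Median centring gave 8 higher and 7 lower. CDH11, a cadherin of mesenchyme, rose by 1.20 ± 0.26, and DSP, desmoplakin, and CTNNA2 fell by 2.20 ± 0.58 and 2.63 ± 0.61.

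Markers of tissues outside the vein wall mostly did not pass. ADIPOQ, adiponectin of fat, had 6.37, 6.38, 5.66 and 9.58 at the anastomosis and 10.86, 9.81, 12.44 and 13.55 in the controls, which is a large but uncertain difference (−4.66 ± 2.15, adjusted p = 0.155). Of 26 adipocyte genes 1 fell, CFD, which is also a fibroblast gene. Of 26 skeletal muscle genes 6 fell and 0 rose, for example LDB3 (−1.98 ± 0.42) and ACTA1 (−2.03 ± 0.61). The log2 summed level of its 5 markers was 8.77 to 9.28 at the anastomosis and 9.34 to 10.55 in the controls. The part of fat and skeletal muscle in the falls above was not tested. In the red cell and platelet list 0 of 9 passed in limma and in the keratinocyte list 0 of 8, with 1 and 0 at an unadjusted p under 0.05 and 1 and 2 called with median centring. HBB, a globin, had −0.63 ± 0.55 (adjusted p = 0.505), and KRT5 0.04 ± 0.10 (adjusted p = 0.872).

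Genes often used as references were not all level. HPRT1 had 12.17, 12.08, 11.84 and 11.58 at the anastomosis and 10.37, 10.51, 10.55 and 10.07 in the controls, a rise of 1.54 ± 0.26 (adjusted p = 0.00145). ACTB and RPL4 also rose, RPL4 by 0.38 ± 0.09. PPIA, cyclophilin A, had 8.02, 8.62, 7.72 and 7.22 against 8, 7.85, 8.04 and 7.13, with overlap and an interval of −0.18 to 0.46 around 0.14. Its probe was dim beside that of HPRT1, in samples whose lowest level well above background was 5.49 to 6.32.

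Genes were also grouped by the stem of their symbol. Of 74 families with at least 8 tested members, KIF had 8 of 15 higher, NUP, the nuclear pore, 6 of 11, and PSMD, the proteasome lid and base, 5 of 9, each with 0 lower. ADAM had 6 of 9 higher and 0 lower, and SEC, mostly of protein export, 9 of 20 higher and 1 lower. MRPL, the mitochondrial ribosome, had 7 of 19 higher and UBE, ubiquitin enzymes, 7 of 21, again with 0 lower. UBE2T rose by 2.47 ± 0.35, SEC23B, a coat protein of export vesicles, by 0.85 ± 0.15 and NUP50 by 0.75 ± 0.13.

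In the zinc finger family ZNF the balance was downward, with 15 of 63 lower and 4 higher (median −0.17), but it turned with median centring, with 4 lower and 16 higher (median 0.09). ZNF565 and ZNF704 fell by 1.21 ± 0.18 and 1.17 ± 0.19, and ZNF281 rose by 1.17 ± 0.18. Of 122 solute carriers 22 rose, the same 18% as of all features with a symbol, and 7 fell; with median centring 46 were higher and 6 lower. The falls were led by SLC7A10 (−2.60 ± 0.51), an amino acid carrier, and SLC2A12 (−2.55 ± 0.29), a glucose carrier. In the TLR family, innate immune receptors, 0 of 10 passed in limma, with 5 at an unadjusted p under 0.05 and 4 called with median centring. Where symbols had further tested probes, 928 of 999 other probes of called genes (92.9%) lay in the direction of the brightest probe.

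The vein downstream of the anastomosis shares the red dye, so that comparison carries no difference of dye. It shares the anastomosis samples with the comparison above. Each red value was normalised together with the green channel of its array, which for the downstream veins belongs to no sample in the labels. The downstream sample of replicate 1 stood apart from the other downstream veins, toward the controls: on the second principal component, which carried 21.7% of the variance, it was at 18.5, the other downstream veins at −43.4, −28.3 and −21.9 and the controls at 40.5 to 67.7. Values without replicate 1 are therefore given as well. Between anastomosis and downstream vein at day 5, 0 of 33334 features (0%) passed in limma, where the smallest adjusted p was 0.424. By other settings 0 or 1 passed. At an unadjusted p under 0.05 there were 3330 features (9.99%), 1920 higher and 1410 lower. The downstream veins lay between the other sites for the leading falls. SCARA5 had 13.56, 12.48, 11.42 and 10.94 downstream, above each anastomosis sample and below each control, and the anastomosis minus downstream difference was −2.71 (95% interval −3.79 to −1.64). NTRK2 had 12.37, 11.54, 10.55 and 10.26 downstream (difference −2.43, −3.73 to −1.12), and PDK4 ranged there between 9.91 and 13.78, overlapping the controls (difference −2.14, −3.46 to −0.82).

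Without replicate 1 the anastomosis minus downstream difference was −2.13 (−3.20 to −1.06) for SCARA5 and −1.70 (−3.07 to −0.34) for NTRK2. For PDK4 it was −1.52, with an interval that reached 0. In limma 0 features passed without replicate 1, and 1252 had an unadjusted p under 0.05.

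The mitotic gene CCNB1 had 9.36, 11.39, 11.87 and 11.67 in the downstream veins, and the anastomosis minus downstream difference of 1.13 had an interval of −0.07 to 2.32. Replicate 1 was the lowest, and without it the difference was 0.50 (−0.89 to 1.89). For TMSB10, at 16.96, 17.68, 17.82 and 17.63 downstream, the interval was narrow and near 0, from −0.40 to 0.17. ACTA2 and MYH11 differed by 0.16 (−1.23 to 1.55) and −0.34 (−1.95 to 1.27), and by 0.56 (−1.26 to 2.39) and 0.51 (−1.22 to 2.23) without replicate 1. The median of the contractile list between the sites was −0.17, and 0.33 without replicate 1. That of the mitotic list was 0.90, and 0.41 without replicate 1.

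**Figure D5:**
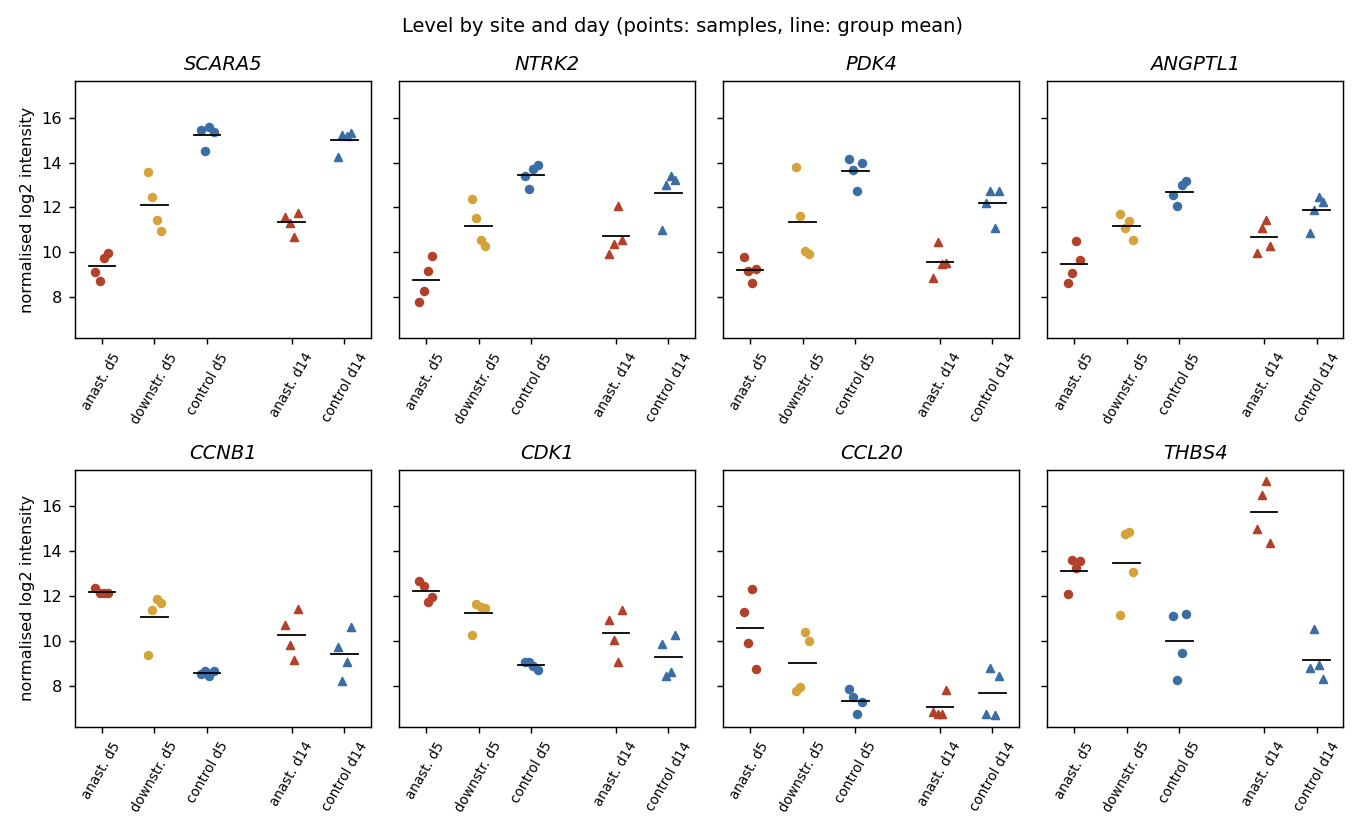
Normalised log2 intensity (y axis) of 8 genes in the 4 samples of each group, anastomosis (red), downstream vein (yellow) and control (blue) at day 5 (circles) and anastomosis and control at day 14 (triangles), with the group mean as a line. SCARA5 and CCNB1 lie furthest from the control at the day 5 anastomosis, and THBS4 at the day 14 anastomosis.

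A change of the anastomosis minus control difference between days is free of a constant dye shift. In limma 0 of 33334 features (0%) passed for day 5 minus day 14, with a smallest adjusted p of 0.339 and 2774 (8.32%) at an unadjusted p under 0.05. When the fit held only the 16 samples of the 4 groups compared, 68 passed, 52 of them higher at day 5. Of these 52, 27 were among the 123 tested genes of the proliferation lists. With the values deposited by the authors, 46 passed, 16 of them higher, with 2 proliferation genes.

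The mitotic list had a median anastomosis minus control difference of 2.38 at day 5 and 0.48 at day 14. CCNB1 averaged 12.20 ± 0.11 at the anastomosis and 8.57 ± 0.10 in the control at day 5, and 10.28 ± 1.00 and 9.40 ± 1.03 at day 14 (SD, n = 4 each). The day 5 difference exceeded that of day 14 by 2.75 (interval 1.06 to 4.44, adjusted p = 0.416). With only the groups compared the same 2.75 had an adjusted p of 0.0253. For UBE2C the change was 2.77 (1.22 to 4.33), with adjusted p of 0.399 in the fit of all samples and 0.0268 in that of the groups compared.

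Other genes of interest for the days were picked after their values were seen. C4BPA shared the smallest adjusted p, its difference being −2.41 at day 5 and 0.50 at day 14 (change −2.91, interval −3.89 to −1.93, adjusted p = 0.339). CCL20 differed by 3.23 at day 5 and −0.64 at day 14 (change 3.87, 1.84 to 5.89). IGF2 differed by −2.87 and −0.78 (change −2.09, −3.21 to −0.96). THBS4 went the other way, by 3.14 and 6.6 (change −3.46, −6.23 to −0.69). For TMSB10 the interval of the change was narrow (change 0.01, −0.39 to 0.41), and for TMEM158 it was wider (−0.56, −1.49 to 0.37). The medians at the 2 days were −1.73 and −1.15 for contractile genes, 0.59 and 0.90 for macrophage genes, and 0.13 and 0.70 for fibrillar collagens.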

How the data were processed

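RNA of 24 vein samples was measured on 16 2-colour arrays of 60-base pig probes. Per the file headers, the authors deposited foreground and background intensity values of each spot, read with Agilent Feature Extraction 10.5.1.1 and not normalised. Processed signals of each spot were deposited with them and were used in an alternative. The authors also deposited a table of log2 values, with a normalisation not given in the sources used here; it served as an alternative. Its replicate 4 columns correlated better with the scanner values of replicate 3 than with those of replicate 4.

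Intensities were background-corrected with normexp (offset 50), normalised by loess within arrays and Aquantile between arrays, and split into single-channel log2 values with limma 3.58.1 in R 4.3.3. Control spots were left out. Of 43603 probes, 9274 (21.3%) had a gene symbol; the brightest probe stood for a symbol. Features well above background in at least 4 samples were kept. One limma model held all 24 samples, with group and a block of replicate number within day (8 blocks), and Benjamini-Hochberg adjustment over all features. The pairing comes from the shared arrays at the compared sites. Same-numbered samples deviated together in each pair, at r of 0.19 or more. Samples of different numbers were not correlated, and the numbers also differed in extraction protocol, so these r cannot show the pairing. The precision is limited by the number of arrays, 4 pairs at day 5.

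Named are the 20 largest rises and falls with a symbol and the 5 without, up to 5 called and 3 bright uncalled members of each of 83 lists, markers and reference genes. The members and lists were chosen with earlier results of these data known. Alternatives changed the background correction, normalisation, filter, probe per symbol, block, samples and source of values.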

Additional observations from a re-analysis of the deposited data

Results flagged for a closer look

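In 20 of 566 groups of 4 samples examined over the named features (3.53%), 1 sample lay apart from the rest, its gap to the nearest exceeding Dixon's 95% limit as a share of the range; chance gives about 1 in 20 groups. At the anastomosis the sample apart was replicate 1 for CCNB1 (12.37), HSPA5 (15.69), RGS2 (15.94) and SLC2A1 (9.54), each above the rest. Replicate 3 was high for F3 (12.33) and low for PGLYRP1 (6.65). Replicate 4 was low for IL6 (14.21) and DSP (6.24) and high for MYOCD (9.14). In the controls replicate 1 was high for BDNF (8.43), GSN (18.66), LYZ (11.14) and MMP9 (12.57). Control replicate 2 was low for CFD (14.78), FOXO3 (13.4) and YARS (9.48) and high for LTBP4 (16.31). Control replicate 3 was high for EFHD1 (11.19) and low for A_72_P314703 (6.56), and control replicate 4 was low for SKA1 (7.75).

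The green channel of the arrays that carry the downstream veins belongs to no sample in the labels used here. It held signal, with 56.6% to 82.4% of probes well above background, and entered no comparison as a sample. Both channels of an array were normalised together, so it did bear on the scale of the downstream values.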

How the results depend on the processing

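For anastomosis against control at day 5, 6445 features passed. The count was 10951 with median centring, 2287 with no replicate block (each of them among the 6445), 3956 with only replicates 3 and 4, and 2 with only replicates 1 and 2 (A_72_P195662, −3.54, and A_72_P055151, −3.39, against −2.80 and −2.66 in all samples). Leaving out 1 replicate gave 2402 to 5119, with 3807 without replicate 3 and 2402 without replicate 4; fewer samples were fitted there. The other settings stayed within 1.5 times, from 6155 with no filter to 9299 with only the groups compared. For anastomosis against downstream vein, 0 passed; 1 passed with processed signals (A_72_P429089, −2.68 ± 0.35) and leaving out 1 replicate gave 0 to 1 (A_72_P415788, −3.12 ± 0.28, without replicate 4). For day 5 minus day 14, 0 passed; 68 passed with only the groups compared, 46 with the authors' value table, 1 with processed signals (A_72_P429089, −3.97 ± 0.49), and 0 to 1 without 1 replicate (A_72_P382428, 1.33 ± 0.13, without replicate 1). The causes of these shifts were not tested. With median centring RPS15 turned to 0.01, and list medians turned to 0.39 for vascular tone, 0.22 for Wnt signalling and 0.36 for pentose phosphate and one-carbon genes. Of 251 called features named in the text, 38 were no longer called with median centring, 60 with no replicate block, 30 to 84 without 1 replicate, 77 with only replicates 3 and 4 and 251 with only replicates 1 and 2. Under the remaining alternatives 1 to 9 were not. An alternative chosen after seeing the data left out the day 14 samples of number 2, and gave 7527.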

Other observations

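Transcription factors of mesenchyme, not described above, were split: of 31 tested, 9 rose and 5 fell, with a median of 0.02, against 18% higher and 11.9% lower over all features with a symbol. WT1, a factor of mesothelium and kidney, rose by 1.43, ETS1 by 1.40 and TWIST1, which drives mesenchymal fate, by 1.1, while HOXA4, a positional homeobox gene, fell by 1.86. Of 27 histone and chromatin modifiers 5 rose and 6 fell, against 16 and 3 with median centring. SMARCA4, the motor of a remodelling complex, rose by 1.49 and DNMT1, the maintenance DNA methyltransferase, by 1.26, and TET1 and HDAC9 fell by 1.17 and 1.15.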
